A study of Mus musculus with 6 samples.

Results

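The 3 murine pancreatic tumour cell lines with abundant mRNA of the protocadherin gene Pcdh7 were set against the 3 lines with little of it. The lines were selected on the Pcdh7 level itself, above 40 CPM (library counts scaled to a common total) for the Pcdh7-high lines and below 5 CPM for the Pcdh7-low lines. KPC850, KPC180 and KPC490 were Pcdh7-high and KPC142, KPC630 and KPC469 Pcdh7-low, which placed all 6 lines of the series. Each is a pancreatic ductal adenocarcinoma (PDAC) line from a KPC mouse, and KPC is also the strain the labels name. KPC is the usual name of a genetically engineered mouse model of pancreatic cancer. The labels give no treatment, age, sex, passage or clonal origin. With 1 library per line, p-values measure the spread between different lines, and no line has a repeat culture. The series asks which tumour markers go with low entry of CD8+ T cells and singles out PCDH7, but no infiltration class per line is given in the sources used here, so the sides stand for the Pcdh7 level alone.

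Non-clustered protocadherins are single-pass proteins of the cell surface whose extracellular cadherin repeats can bind the same protein on a neighbouring cell. In carcinoma cells PCDH7 has been described with the protein SET, with protein phosphatases and with gap junctions. Of the gene lists read here, chosen with earlier results of these data known, sterol and fatty acid synthesis held the most separated genes. Both processes are switched on by the SREBP transcription factors, which membrane sterol holds back. At many of their target promoters SREBP works together with NF-Y, a factor that recognises the CCAAT box.

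The sequence before the gene start is shown for Pcdh7, which set the sides, and for 3 genes of the cholesterol list whose values separated them. For Idi1 that separation was all but a tie. Each is the 250 bases before the RefSeq start, 5' to 3' on the plus strand, which is the strand of all 4 genes, from the RefSeq table of build GRCm38.p6. Capitals mark CCAAT (or ATTGG, its form on the other strand) and the sterol regulatory element, searched as TCACNCCAC on both strands. Pcdh7 is at chr5:57717831-57718080, Hmgcs1 at chr13:119690101-119690350, Insig1 at chr5:28071162-28071411 and Idi1 at chr13:8885356-8885605.
Pcdh7: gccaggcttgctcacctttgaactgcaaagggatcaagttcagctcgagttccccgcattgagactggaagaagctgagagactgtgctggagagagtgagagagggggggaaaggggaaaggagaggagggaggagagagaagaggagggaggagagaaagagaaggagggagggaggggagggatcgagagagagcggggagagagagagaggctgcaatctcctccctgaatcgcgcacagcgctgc
Hmgcs1: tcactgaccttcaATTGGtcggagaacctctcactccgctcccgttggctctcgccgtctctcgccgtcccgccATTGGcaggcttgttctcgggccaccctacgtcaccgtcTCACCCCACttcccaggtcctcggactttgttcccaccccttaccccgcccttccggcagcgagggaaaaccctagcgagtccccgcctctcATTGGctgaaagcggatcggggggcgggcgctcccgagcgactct
Insig1: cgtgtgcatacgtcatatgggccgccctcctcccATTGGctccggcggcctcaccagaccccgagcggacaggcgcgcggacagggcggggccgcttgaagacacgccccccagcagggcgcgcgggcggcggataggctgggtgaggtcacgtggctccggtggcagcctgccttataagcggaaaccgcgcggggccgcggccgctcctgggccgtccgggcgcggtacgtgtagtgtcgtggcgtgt
Idi1: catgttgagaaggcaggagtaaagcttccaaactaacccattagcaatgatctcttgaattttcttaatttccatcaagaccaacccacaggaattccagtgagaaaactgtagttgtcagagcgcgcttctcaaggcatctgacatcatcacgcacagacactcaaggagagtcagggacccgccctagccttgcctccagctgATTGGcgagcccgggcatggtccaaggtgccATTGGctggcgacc
In the Pcdh7 window neither motif was found. Hmgcs1 held 3 CCAAT boxes and a sterol element whose first base lay at position -137 from the start, Insig1 held 1 CCAAT box and Idi1 held 2. Of the 24 genes listed for cholesterol synthesis and uptake, 16 had an entry in the table and 16 of those held a CCAAT box, against 37.5% of all 27025 genes. The sterol element was found in 1 of the 16 and in 1.22% of all genes. A gene counted if any of its listed starts held the motif. All genes here means every gene with an entry, not only those tested in these lines, so the shares are not like for like. For fatty acid synthesis a CCAAT box was found in 8 of 12 genes with an entry and the sterol element in 0. Among the members with separated sides, a CCAAT box was found in 8 of 8 cholesterol genes and in 2 of 6 fatty acid genes (33.3%). These matches describe letters in a window of fixed length and are not binding sites.

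Pcdh7 stood at 132, 109 and 47.6 CPM in the Pcdh7-high lines and 4.31, 3.78 and 0.109 in the Pcdh7-low lines, in the order KPC850, KPC180, KPC490 and KPC142, KPC630, KPC469. KPC490 was the line just inside the upper threshold and KPC142 the line just inside the lower one, 11-fold apart. These levels chose the sides and were not tested. All values by line follow this order. Of 11 other non-clustered protocadherins, 2 reached 10 CPM in a line and neither separated the sides. Pcdh1 was at 85.7, 81.3 and 81.02 CPM against 77.7, 101 and 49.4, and Pcdh18 at 0.291, 0 and 0.871 CPM against 0, 4.63 and 54.7, so that its high value belonged to KPC469 alone.

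Library totals were 16471558 to 18701274 counts. The ductal keratin Krt19 was present throughout, at 2657, 837 and 2062 CPM against 2111, 2755 and 887, and the 8 ductal markers summed to 2817 to 7603 CPM in the Pcdh7-high lines and 4865 to 9895 in the Pcdh7-low lines. Markers of other cells were low on both sides. T and NK cell markers summed to at most 1.69 CPM, with Cd3d, Cd3g, Cd8b1 and Cd4 at 0 in every line, and B cell markers to at most 0.0607. Myeloid markers summed to 1.68 to 2.92 CPM in the Pcdh7-high lines and 2.94 to 4.79 in the Pcdh7-low lines, with 9 of 10 under 1 CPM in every line and Adgre1, C1qa and C1qb at 0. Endothelial markers reached 2.87 and fibroblast markers 10.8 CPM in sum. Acinar and endocrine markers summed to 3.95 to 28.0 CPM in the Pcdh7-high lines and 1.17 to 2.997 in the Pcdh7-low lines, through the elastase gene Cela1 and, in KPC180, Pax6, while 8 of 12 were at 0 in every line. Their part in the results was not tested. In bulk RNA, fewer cells of a kind and less RNA per cell cannot be told apart.

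Tgfa, Col18a1 and Cldn12, given together with Pcdh7 for these sides and therefore no independent evidence, were each higher in all 3 Pcdh7-high lines. Tgfa, which encodes a ligand of the EGF receptor, stood at 74.3, 80.7 and 65.9 CPM in the Pcdh7-high lines and 34.4, 40.8 and 15.8 in the Pcdh7-low lines. Col18a1, a basement membrane collagen whose C-terminal fragment is endostatin, stood at 419, 350.1 and 345 CPM in the Pcdh7-high lines and 192, 229.6 and 116 in the Pcdh7-low lines. Cldn12, a claudin, stood at 74.7, 74.2 and 66.3 CPM in the Pcdh7-high lines and 58, 55.3 and 47.6 in the Pcdh7-low lines. The lowest Pcdh7-high line lay above the highest Pcdh7-low line for each of these genes, with the smallest separation for Cldn12. Differences between the sides on the log2 scale, with standard errors, were 1.28 ± 0.35 for Tgfa, 1.05 ± 0.28 for Col18a1 and 0.42 ± 0.18 for Cldn12. None passed the edgeR test, with an adjusted p of 0.999 for Tgfa.

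**Figure D1:**
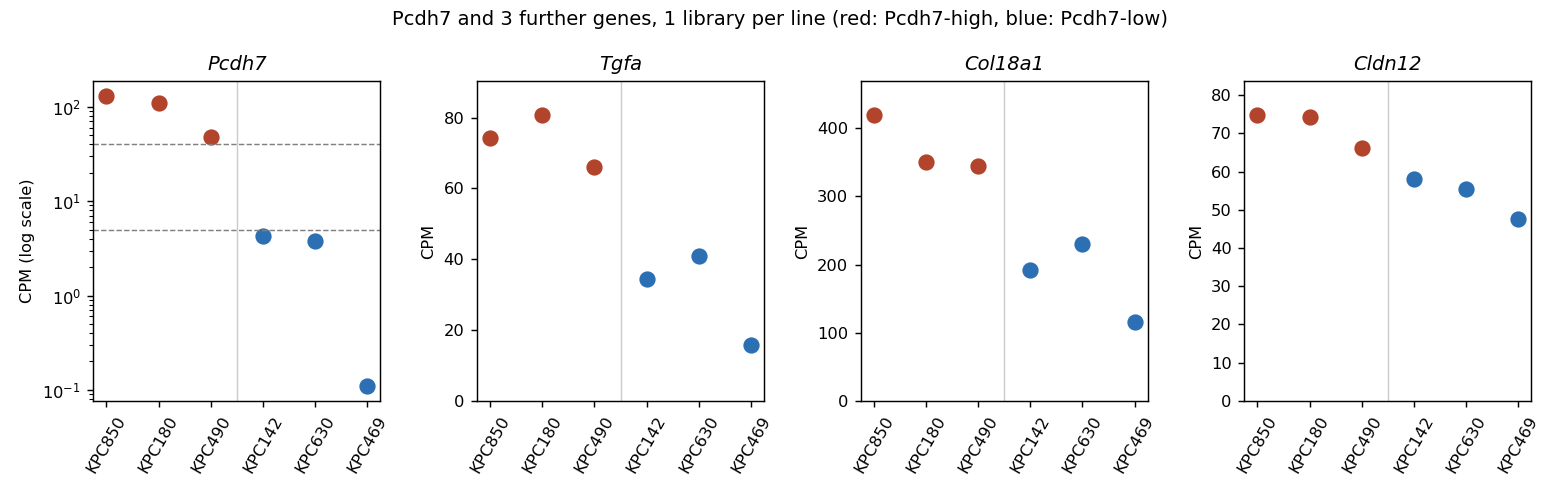
CPM of Pcdh7 and the 3 genes given with it, 1 point per line, coloured by side. Pcdh7 spans 47.6 to 131.5 CPM in the Pcdh7-high lines and 0.109 to 4.31 in the Pcdh7-low lines, and the sides of Tgfa, Col18a1 and Cldn12 do not overlap.

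Pcdh7 was left out of the test, which took the 10233 genes that reached 10 CPM somewhere. Of these 0 genes (0.0%) passed an adjusted p of 0.05 in edgeR's quasi-likelihood test. The smallest adjusted p in edgeR was 0.273, for Wnt7b. Wnt7b reached 10 CPM only in Pcdh7-low lines, as did Traf1, Pdk3, Ctsh, Mid2 and Cd34. Clic6, Tenm4, Disp2 and Ifi27l2b reached it only in Pcdh7-high lines. Such genes entered the test through the side where they are high, so their p-values and gaps are partly selected. At an unadjusted threshold of 0.05 the test gave 441 genes (4.31%), 199 higher (1.94%) and 242 lower (2.36%) in the Pcdh7-high lines. limma-voom also called 0 genes, with 399 at the unadjusted threshold. DESeq2 called 47 genes, 25 higher and 22 lower, of which 45 had sides that did not overlap. No gene is therefore described as changed, and values are given line by line. An exact permutation test of a single gene over 3 against 3 lines could not give a p under 0.1.

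Separation of the sides, meaning that every line of one side lay above every line of the other, held for 899 genes (8.79%), 449 higher (4.39%) and 450 lower (4.4%) in the Pcdh7-high lines. The sides were at least 2-fold apart for 25 genes (0.244%), 7 higher (0.0684%) and 18 lower (0.176%). A random choice of 3 against 3 lines separates a gene whose values all differ with probability 0.1, and 8.79% lies under that. Separation alone therefore does not tie a gene to the Pcdh7 level. The shares over all tested genes are the background for the counts of gene groups given here. The median log2 difference of all tested genes was -0.004, with 5057 above and 5176 below 0.

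**Figure D2:**
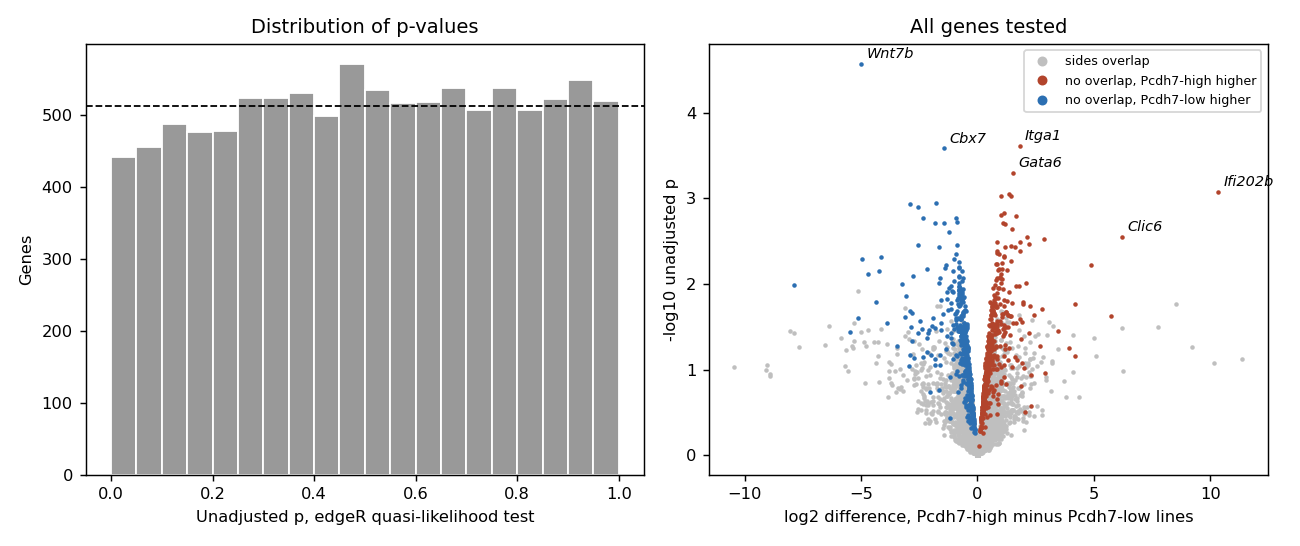
Left, number of genes by unadjusted p of edgeR's test in 20 equal bins, with the level of an even spread as a dashed line. Right, -log10 of that p against the log2 difference for the 10233 tested genes, coloured where the sides do not overlap (899 genes). The lowest bin, with 441 genes, lies under the dashed line.

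Wnt7b, a secreted Wnt ligand, had the smallest p and was almost silent in the Pcdh7-high lines. It stood at 0.641, 0.364 and 1.28 CPM in the Pcdh7-high lines and 20.2, 21.4 and 31.8 in the Pcdh7-low lines, a log2 difference of -4.99 ± 0.55. Its lowest Pcdh7-low line lay far above its highest Pcdh7-high line. Wnt7b was tested only through the Pcdh7-low lines, the side where it was high. Fzd3, a Frizzled receptor for Wnt ligands, was at 0.233, 0.485 and 0.174 CPM against 2.996, 1.97 and 13.9, with separated sides. It reached 10 CPM in KPC469 alone and was tested only through that line. Fzd3 is outside the list of Wnt and Notch genes, and among its 19 tested members Wnt7b was the 1 lower gene with separated sides. The Notch ligand gene Jag2, at 93.8, 49.8 and 49.1 CPM against 12.4, 29.2 and 36.99, and the Notch target Hes1 were the 2 higher ones. The list's median was 0.24 (0.13 without KPC850), and -0.02 at the lowest over the 13 settings tried.

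Csf1, Nfkb2 and Traf1 were 3 of the 450 genes with separated sides that were lower in the Pcdh7-high lines. Csf1, the growth factor of macrophages, stood at 12.7, 14.8 and 7.84 CPM in the Pcdh7-high lines and 36.6, 39.2 and 104 in the Pcdh7-low lines, a log2 difference of -2.34 ± 0.48. Nfkb2, the NF-kB subunit of the non-canonical pathway, was at 55.1, 47.4 and 53.1 CPM against 92.9, 87.8 and 113, and Traf1, an adaptor of TNF receptors, at 2.74, 1.09 and 2.09 CPM against 11.6, 13.04 and 10.7. All 3 had sides that did not overlap, and KPC469 held the highest value of Csf1 and Nfkb2. Over 8 tested cytokine genes that attract myeloid cells, 1 had separated sides (Csf1), with a median of -0.87. That median was -0.11 without KPC630 and -1.60 without KPC850. The summed myeloid markers given above were also lower in the Pcdh7-high lines, by a narrow margin, and their part in these values was not tested.

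The other genes lower in the Pcdh7-high lines had varied roles. Cbx7, a Polycomb protein, stood at 24.5, 21 and 19.9 CPM in the Pcdh7-high lines and 69.8, 56.1 and 51.2 in the Pcdh7-low lines, a log2 difference of -1.44 ± 0.22. Pdk3, an inhibitory kinase of pyruvate dehydrogenase, was at 5.07, 5.04 and 6.098 CPM against 22.5, 19.5 and 13.2, and Ctsh, the protease cathepsin H, at 4.78, 4.79 and 1.74 CPM against 45.96, 21.7 and 15.6. In each case the sides were more than 2-fold apart. The water channel gene Aqp5 was at 19.8, 22.6 and 158 CPM against 509, 665 and 534, with KPC490 well above the other Pcdh7-high lines, and Cd34, a surface sialomucin, at 1.05, 0 and 4.41 CPM against 15.9, 30.5 and 34.98. Ltbp1, which anchors latent TGF-beta in the matrix, was at 70.5, 66.3 and 80.6 CPM against 114, 167 and 225, and Anxa1, an annexin that acts in the resolution of inflammation, at 324, 220.4 and 251 CPM against 508, 442 and 498. Foxc1, a forkhead transcription factor, was under 0.3 CPM in the Pcdh7-high lines and at 2.64, 2.93 and 20.5 CPM in the Pcdh7-low lines. Most was in KPC469, the only line in which it reached 10 CPM.

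Of the genes higher in the Pcdh7-high lines, Itga1 had the smallest p. Itga1, the alpha 1 integrin that binds collagen, stood at 114, 132 and 141 CPM in the Pcdh7-high lines and 44.4, 42.4 and 23.8 in the Pcdh7-low lines, a log2 difference of 1.81 ± 0.28 and an adjusted p of 0.893 in edgeR. Ptpru, a receptor tyrosine phosphatase, was at 7.34, 19.6 and 9.53 CPM against 0.899, 0.319 and 0, and Tenm4, a teneurin, at 4.08, 15.7 and 12.6 CPM against 0.479, 1.28 and 0. Both were near 0 in the Pcdh7-low lines, and Ptpru reached 10 CPM in KPC180 alone. Clic6, a chloride intracellular channel protein, was at 170.4, 443 and 17.9 CPM against 1.38, 2.82 and 4.195, with a wide spread among the Pcdh7-high lines, and Disp2, of the Dispatched family, at 16.2, 20.8 and 8.36 CPM against 3.65, 1.38 and 1.199.

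Ifi202b, an interferon-inducible gene with closely similar family members among which reads may be shared, had 236, 108 and 124 counts in the Pcdh7-high lines and 0 in each Pcdh7-low line. With a floor of 3 counts per library it was at least 54.7-fold higher in the Pcdh7-high lines. It reached 10 CPM in KPC850 alone, at 13.8 CPM. Ifi27l2b, an interferon-inducible gene outside the list of interferon-stimulated genes, was at 23.3, 15.5 and 13.3 CPM against 6.17, 6.82 and 4.03, also with separated sides. Of the 10 tested members of that list 1 (Stat2) had separated sides, and the median was -0.05, with -0.31 to 0.18 when single lines were left out.

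**Figure D3:**
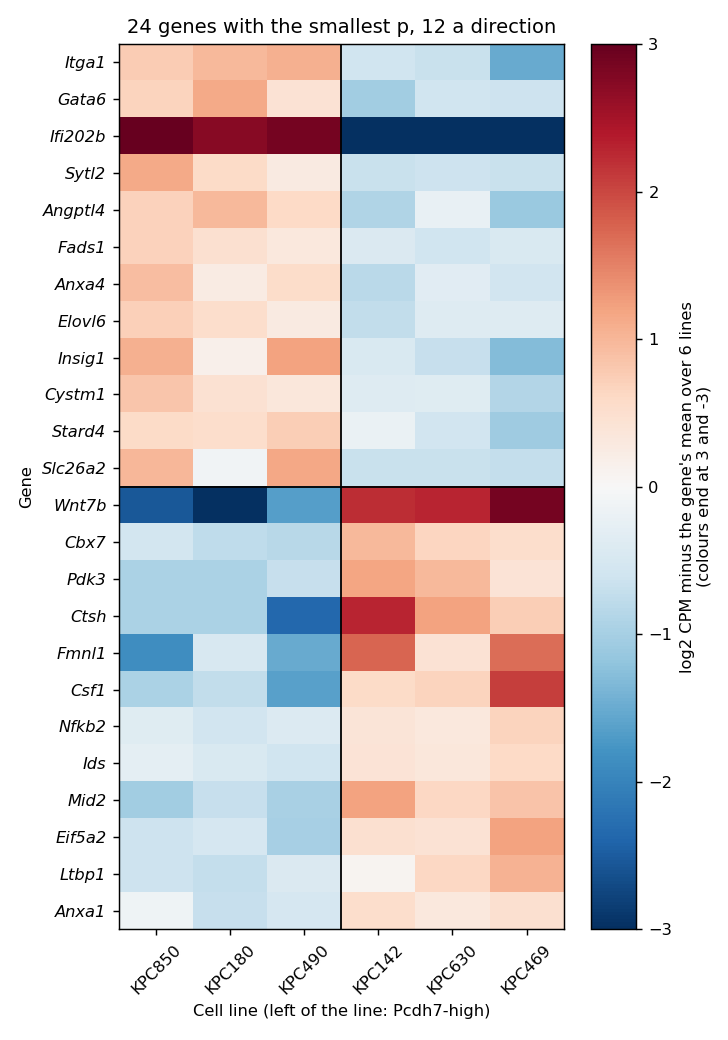
Heat map of log2 CPM minus the gene's mean over the 6 lines, for the 12 genes in each direction with the smallest p in edgeR's test (rows) in each line (columns, Pcdh7-high lines at the left). Ifi202b and Wnt7b show the strongest contrast, and none of these genes passes the adjusted threshold.

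Cholesterol synthesis and uptake held the largest number of separated genes among the lists: 11 of 24 tested members (background 4.39%), all higher in the Pcdh7-high lines, with 24 of 24 differences above 0 and a median log2 difference of 0.97. Insig1, which retains the SREBP machinery in the endoplasmic reticulum and is itself an SREBP target, stood at 331, 174 and 365 CPM in the Pcdh7-high lines and 115, 96.95 and 63.8 in the Pcdh7-low lines, a log2 difference of 1.66 ± 0.35 and an adjusted p of 0.958 in edgeR. Hmgcs1, which makes HMG-CoA, was at 501, 346 and 456 CPM against 326, 153 and 86.5, and Idi1, the isopentenyl diphosphate isomerase, at 108, 85.4 and 112 CPM against 85.3, 43.7 and 24.8. For Hmgcs1 the separation was narrow, with KPC142 close to the Pcdh7-high lines. Idi1 was all but tied, at 85.4 CPM in KPC180 and 85.3 in KPC142. Lss, the lanosterol synthase, was at 179, 135 and 226 CPM against 122, 76.7 and 33.5, and Tm7sf2, a sterol reductase, at 30.3, 41.1 and 53.8 CPM against 21.9, 15.1 and 9.32. Stard4, a carrier of sterol, was at 254, 244 and 284 CPM against 149, 114 and 80.5, with a wider gap.

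The remaining separated members were Fdps, Fdft1, Cyp51, Sc5d and Dhcr7. Srebf2, the transcription factor gene of the pathway, overlapped, at 608, 510 and 442 CPM against 723, 399.5 and 245. The mean centred log2 level of the list was 0.56 in KPC850, 0.45 in KPC180 and 0.70 in KPC490, and 0.31 in KPC142, -0.51 in KPC630 and -1.51 in KPC469. KPC142 thus lay nearer to the Pcdh7-high lines than to the other Pcdh7-low lines. Leaving out KPC469 gave a median of 0.65, and leaving out KPC142 one of 1.54, the lowest and highest over the settings tried. The list was chosen with the levels of sterol genes in these lines known, so its counts are no independent evidence.

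Fatty acid synthesis had 7 of 15 tested members with separated sides (background 4.39%), all higher in the Pcdh7-high lines. Of its differences 13 of 15 were above 0, with a median of 0.48. The desaturase genes Fads1 and Fads2, which act on polyunsaturated fatty acids, had separated sides. Fads1 stood at 201, 173 and 155 CPM against 92.5, 82.3 and 90.6, and Fads2 at 366, 274 and 267 CPM against 59.6, 161 and 40.2. Elovl6, an elongase, was at 203, 180.1 and 150 CPM in the Pcdh7-high lines and 75.02, 95.5 and 94.8 in the Pcdh7-low lines, a log2 difference of 1.01 ± 0.21. The separation was clear for these genes and narrow for Srebf1, the SREBP-1 gene, at 306, 246 and 258 CPM against 222, 227 and 226. The synthase gene Fasn overlapped, at 934, 620 and 789 CPM against 539, 647 and 699. Angptl4, an inhibitor of lipoprotein lipase outside both lists, was at 102, 124 and 96.1 CPM against 34.1, 53.9 and 29.04.

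**Figure D4:**
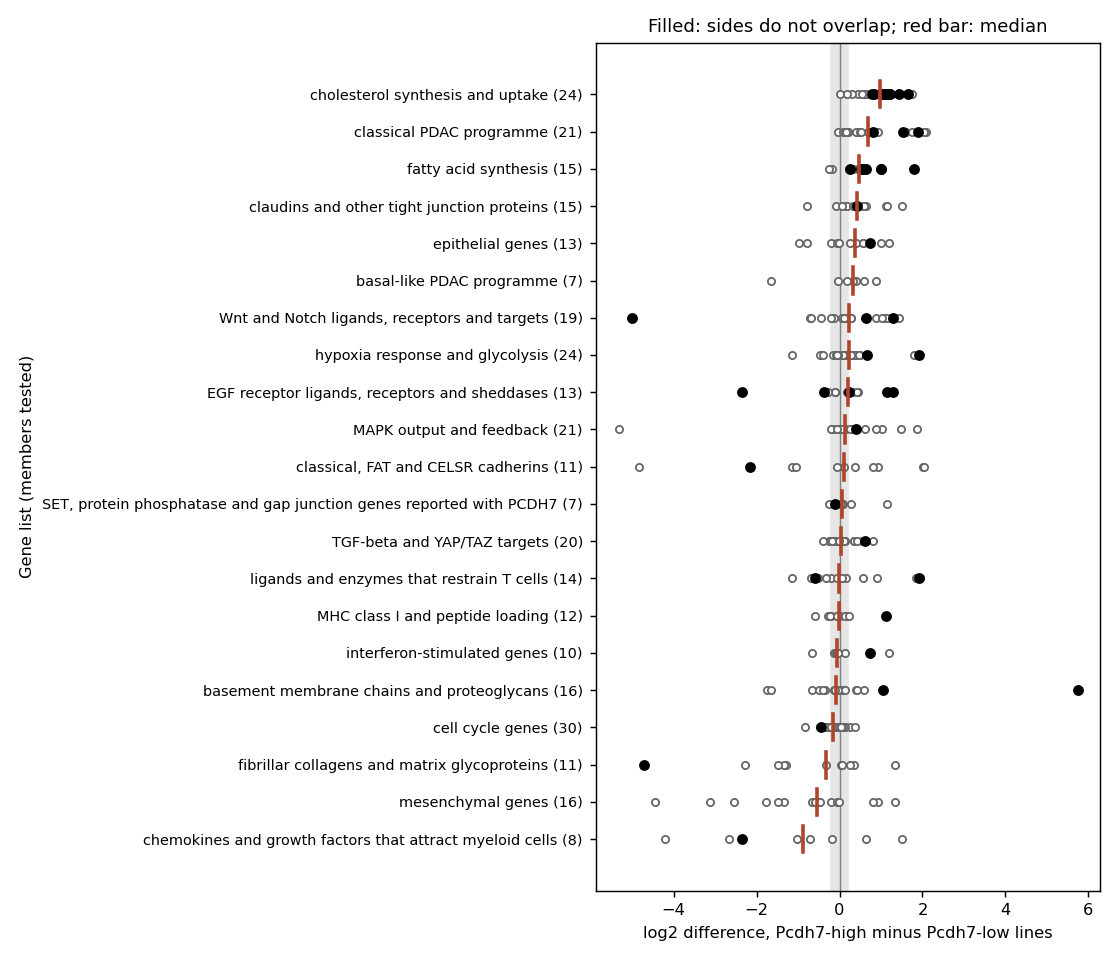
Log2 difference between the Pcdh7-high and Pcdh7-low lines for each tested member (points) of each gene list with at least 7 tested members (rows), filled where the sides do not overlap, with the list median as a red bar and the quartiles of all tested genes in grey. Cholesterol synthesis (11 of 24) and fatty acid synthesis (7 of 15) hold the most separated members.

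The classical PDAC programme, genes of the more differentiated tumour subtype, had 20 of 21 tested members above 0, with a median of 0.69. Only 3 had separated sides, all higher (background 4.39%). Gata6, a transcription factor of endodermal fate, stood at 62.95, 86.7 and 53.4 CPM in the Pcdh7-high lines and 19.2, 25.98 and 25.7 in the Pcdh7-low lines, a log2 difference of 1.52 ± 0.26. Foxa1, a pioneer factor of the same lineage, was at 17.9, 45.6 and 69.6 CPM against 3.06, 15.97 and 16.9, with KPC850 just above KPC469, and Tspan8, a tetraspanin, at 498, 308 and 383 CPM against 225, 284 and 170.2. The other 18 members overlapped, such as Hnf4a at 389, 421 and 319 CPM against 327, 220.5 and 84.3. The mean centred log2 level of the classical list was 0.59 in KPC850, 0.60 in KPC180 and -0.01 in KPC490. In KPC142 it was -1.03, in KPC630 0.04 and in KPC469 -0.18. By this level the sides overlapped, with KPC490 below KPC630. The basal-like programme had 0 of 7 separated members.

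Epithelial and mesenchymal lists held few separated genes. Of 13 tested epithelial genes 1, the splicing regulator Esrp2, was separated, with a median of 0.38 (-0.02 without KPC469, 0.08 without KPC850, 0.60 without KPC630), and of 15 tight junction genes 1 was, with a median of 0.41 (0.18 without KPC469, 0.23 without KPC850). Of 16 mesenchymal genes 13 were below 0 and none separated, with a median of -0.55, which became 0.08 without KPC469. Basement membrane genes had 2 separated members of 16, Col18a1, which was given with the sides, and Nid2. Fibrillar matrix genes had 1 of 11, Col12a1, which was lower. Nid2 reached 10 CPM in KPC850 alone and Col12a1 in KPC469 alone. The cadherin Celsr1 was lower, at 29.96, 3.03 and 37.9 CPM against 139.8, 104 and 74.97. Of 7 tested genes reported with PCDH7 1, the phosphatase subunit gene Ppp1ca, had separated sides. It was all but tied, with its lowest Pcdh7-low line at 521.3 CPM and its highest Pcdh7-high line at 518.8.

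EGF receptor genes were mixed. Of 13 tested, 3 were separated upward (Tgfa, Hbegf and the sheddase gene Adam10) and 2 downward (Ereg and Nrg1). The background was 4.39% upward and 4.4% downward. Tgfa was given with the sides, so its place in this count is no independent evidence. Ereg was all but tied, with its lowest Pcdh7-low line at 31.16 CPM and its highest Pcdh7-high line at 31.13. Hbegf, a second ligand of the EGF receptor, was at 102, 225 and 102 CPM against 47.8, 83.8 and 62.98, and Nrg1, a ligand of ERBB3, at 10.9, 0.243 and 4.36 CPM against 31.6, 20.9 and 26.6. The receptor gene Egfr overlapped, at 37.5, 31.7 and 41.6 CPM against 6.95, 89.2 and 24.03, and so did Erbb2, Erbb3, Areg and Btc. Of 21 MAPK output genes 1, Phlda1, was separated.

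Genes that bear on T cells gave counts near the background of 8.79% in either direction. Of 12 tested MHC class I genes 1 (H2-T23) was separated, of 2 T-cell-attracting chemokines 0, and of 14 ligands and enzymes that restrain T cells 2, with medians of -0.02, -0.05 and -0.005. Each of these medians took both signs when single lines were left out. Nt5e, the ecto-enzyme CD73 that makes adenosine, was the higher one of the last list, at 106, 105 and 45.5 CPM against 33.7, 27.9 and 5.83, and the galectin gene Lgals3 the lower one. Nt5e had most in KPC850 and KPC180 and least in KPC469. Of 24 hypoxia and glycolysis genes 2 were separated, of 20 TGF-beta and YAP/TAZ targets 1, and of 30 cell cycle genes 1.

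Separated genes were unevenly spread over the chromosomes. On chromosome X, 110 of 303 tested genes (36.3%) were lower in every Pcdh7-high line than in every Pcdh7-low line and 0 were higher, with a median log2 difference of -0.46. Chromosome 18 was the reverse, with 63 of 270 genes higher and 1 lower (23.7%) and a median of 0.34. The other 9660 genes had 7.51%, but some of their chromosomes also leaned to 1 direction. Chromosome 16 had 46 higher and 4 lower (15.8%), chromosome 10 had 38 and 3, and chromosome 6 had 38 and 4. The opposite lean was seen on chromosome 8, with 6 higher and 22 lower, and chromosome 15, with 5 and 17. Within each of 8 equal stretches of gene order, X held 10 to 18 lower genes and chromosome 18 held 5 to 12 higher ones, so that the pattern ran along both chromosomes. In the order of lines used above, the medians of X were -0.46, -0.17 and -0.04 on the Pcdh7-high side and 0.08, 0.29 and 0.19 on the other. For chromosome 18 they were 0.13, 0.33 and -0.01 against -0.26, -0.21 and 0.01, with KPC490 and KPC469 both near 0.

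Xist, the RNA of the inactive X, stood at 2329, 1124 and 1610 CPM in the Pcdh7-high lines and 0.1198, 1838 and 0.545 in the Pcdh7-low lines, so 2 Pcdh7-low lines nearly lacked it and KPC630 did not. The Y-linked genes Ddx3y, Eif2s3y, Kdm5d and Uty had counts in KPC142 only. Whether the chromosome medians reflect gene dose was not tested. After each line's chromosome median was subtracted, an alternative chosen after seeing the data, X had 15 higher and 20 lower separated genes (11.6%), chromosome 18 had 14 and 13 (10%), and the others 9.27%. Of all genes 957 (9.35%) were then separated, 477 higher and 480 lower, and 506 of them also before. Pdk3 and Mid2 on X and Gata6, Cystm1 and Stard4 on chromosome 18 kept their separation, Slc26a2 on chromosome 18 and Ids on X did not, nor did Hbegf and Lss. Ereg, Adam10, H2-T23, Stat2 and Ppp1ca also lost it. Cholesterol synthesis then had 15 of 24 separated members and fatty acid synthesis 7 of 15. EGF receptor genes went from 3 higher and 2 lower to 1 and 1, Tgfa and Nrg1. The MHC class I, interferon, MAPK and PCDH7 partner lists, with 1 separated member each before, had 0, and the list of genes that restrain T cells went from 1 higher and 1 lower to 1 and 0.

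**Figure D5:**
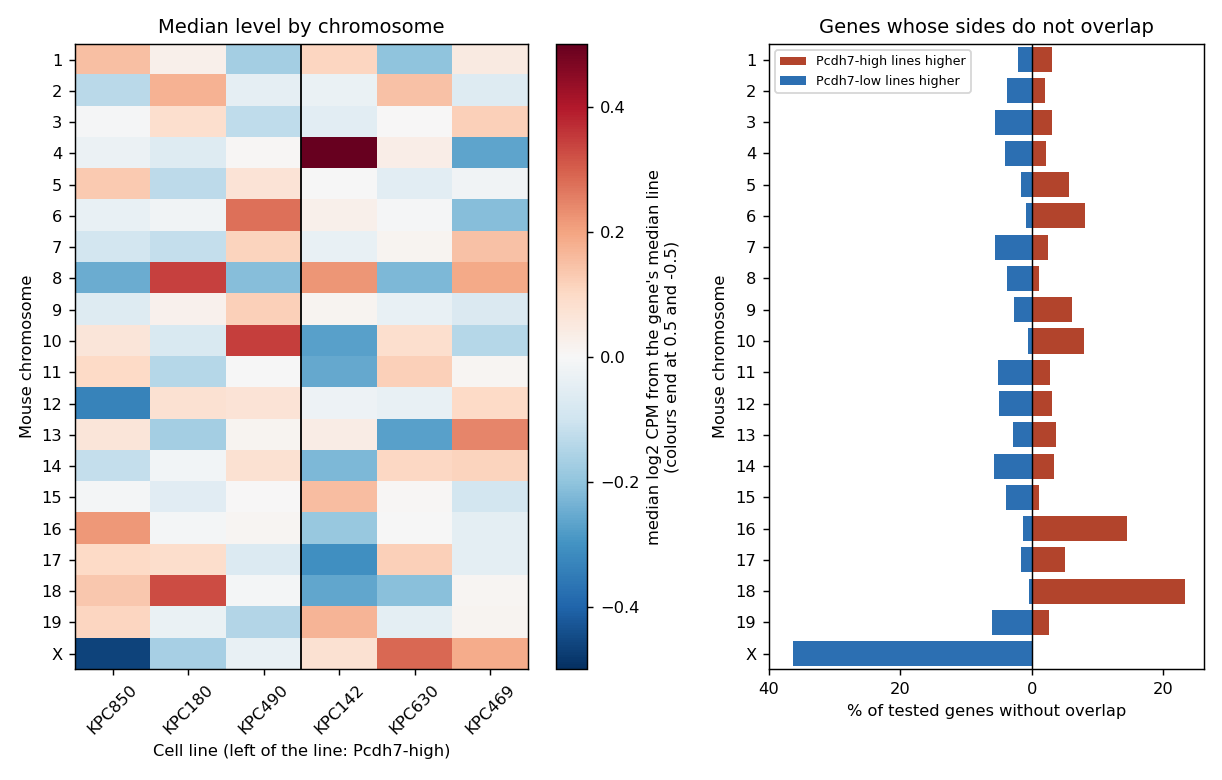
Left, median over the genes of each chromosome of log2 CPM relative to the gene's median line, by line. Right, percent of tested genes per chromosome whose sides do not overlap, by direction. Chromosome X (36.3%) and chromosome 18 (23.7%) stand above the other chromosomes, of which 16 is next at 15.8%.

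Pcdh7 itself lies on chromosome 5, where 38 of 670 genes were higher and 11 lower with separated sides (7.31%), and the median was 0.08. Of its 20 nearest tested neighbours, 10 on each side, 12 had a difference above 0 and 2 had separated sides, Zcchc4 higher and Tbc1d19 lower, with a median of 0.06. The share of separated neighbours was near that of the chromosome.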

How the data were processed

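Polyadenylated RNA of 6 cell lines was sequenced with a stranded mRNA kit, per the labels' protocols. The build GRCm39 and the tools RSEM 1.3.3, STAR 2.7.10b and Trimmomatic 0.36 are listed, per the submitters' processing notes. The strand setting and the annotation release are not given in the sources used here. The authors deposited expected counts for 56953 genes, estimates that share reads between similar transcripts, of which 5.28% to 5.66% per library had a fractional part. They were rounded to whole numbers. GENCODE vM21 names matched 52029 identifiers and were used with its chromosomes and gene order, with no coordinates.

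CPM used TMM factors (0.986 to 1.01) from 11531 genes. Genes reaching 10 CPM in any line were tested between the sides with edgeR 4.0.16 (glmQLFit, glmQLFTest, R 4.3.3) and Benjamini-Hochberg adjustment at 0.05, after checking on simulated data. DESeq2 1.42.0 and limma-voom 3.58.1, other filters and factors, and leaving out each line were alternatives. CPM are not divided by gene length, so levels were compared within a gene only. List levels are on the log2 scale (prior count 2). Each standard error is the size of the log2 difference divided by the square root of the F of edgeR's quasi-likelihood test. It is thus derived from that test and is not a standard deviation of the lines.

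The members, 31 gene lists (7 of them cell markers) and tests were chosen with earlier results of these data known. Named genes were the 4 given with the sides, the 12 with the smallest p and the 8 with the widest gap in each direction, up to 4 members of each list with the largest difference, and the EGF receptor and sex chromosome genes. Others, such as list members with separated sides, were chosen after their values were seen. Some list members are not reported here by name.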

Additional observations from a re-analysis of the deposited data

How the results depend on the processing

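The number of genes called was 0 in the edgeR test, 47 with DESeq2 and 2 (Wnt7b and Ifi202b) with every gene of at least 1 count tested. With single lines left out it was 0 to 4: Aqp5 (lower) without KPC490, and Slc38a1, Evc, Evc2 and Xist (all higher) without KPC630. With KPC142 and KPC469 both left out it was 0 (285 at the unadjusted threshold), and KPC630 as the lone Pcdh7-low line was assumed to vary like the others. The number of genes with separated sides was 1835 without the filter and 1526 to 2382 with single lines left out (lowest without KPC850, highest without KPC630), where fewer lines are easier to separate. Of the log2 differences of the genes followed, 0 changed sign under any setting in which the gene was tested. Most of these genes were picked with separated sides, so leaving out a line could hardly reverse them and this count is no support. Some fell under the filter in a setting, such as Fzd3 and Foxc1 without KPC469 and Ifi202b without KPC850. With DESeq2 31 passed the threshold, among them Wnt7b and Ifi202b, which also passed it without the filter. The medians of chromosomes X (-0.57 to -0.35) and 18 (0.23 to 0.44) kept their sign under all 13 settings. The median of the Pcdh7 neighbours was -0.13 without KPC850. No paired analysis was possible because each line has 1 library and the labels give no replicate number. With 3 lines a side and 1 library each, precision is limited by the number of lines, and for genes of few counts also by depth.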
